A study of Mus musculus with 9 samples.

Results

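The mammalian circadian clock is a transcriptional feedback loop, and 10 of its genes are described here in hormone receptor positive (HR+) cells of the mouse mammary gland. They are the PAR bZIP transcription factors Dbp, Tef and Hlf, the REV-ERB nuclear receptors Nr1d1 and Nr1d2, the Period repressors Per1, Per2 and Per3, and the activators Arntl (the gene of BMAL1) and Clock. Members were chosen by name, with earlier results of these data known, as every array probe annotated to these symbols or their aliases. All 10 genes were found, with 19 probes, of the 19057 named genes and 45281 probes on the array. A probe was tested if its mean normalised signal reached 100, the background level stated by the study, in at least 1 group. Of the 19 probes 13 were tested, and they covered 9 of the 10 genes, with Per3 left out. Over the whole array 18707 probes were tested.

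The study asked how HR+ cells respond to early pregnancy. Luminal cells high for Sca1 and low for CD49b were sorted from female FVB (FVB/N) mice, which were virgins in metestrus or timed-mated animals at day 3 or day 7 of pregnancy. The labels give an age of 9 to 11 weeks for all of them, and by the methods virgin mice were 11 weeks old when given EdU and the others were mated at 9 to 11 weeks. There were 3 mice in each group and 1 array per mouse, and every mouse, controls included, had received EdU, a thymidine analogue that marks dividing cells, at 2 mg per g body weight 24 hours before harvest. From each mouse 1000 cells were sorted, and RNA equal to that of 167 cells was amplified in a multi-round reaction and hybridised to an Illumina BeadChip. The hour of day at which each mouse was killed is not given in the sources used here. Transcripts of clock genes are known to vary over the day, so the hour of harvest and the stage of pregnancy cannot be told apart in any comparison below.

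In the clock, BMAL1 and CLOCK bind E-boxes as a pair and activate the Period and Cryptochrome genes, whose products then repress that pair. The same pair activates Nr1d1, Nr1d2, Dbp and Tef. REV-ERB receptors in turn repress Arntl through ROR elements, and the PAR bZIP factors activate genes that carry D-boxes, Per genes among them. Clock genes are expressed with a daily rhythm in most mouse tissues, mammary gland included.

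The sites through which these proteins act were looked up in the 250 bases before each annotated start site, from RefSeq on GRCm38.p6. The table held 14 such promoters for 9 of the 10 members, Per2 excepted. The letters CACGTG (E-box, the same on both strands), TTATGTAA, TTATGCAA and TTACGTAA (D-boxes) and TAGGTCA and TGGGTCA (ROR elements) were searched on both strands. Among all 32851 promoters of this length, 6.02% held the E-box, 1.61% any of the D-boxes and 5.38% any of the ROR elements. Of the 14 member promoters 3 held the E-box, 2 a D-box and 0 a ROR element. The 4 shown are those of Dbp, whose signal moved most among the members, of Tef and Per1, which also moved, and of Per3, which held the only pair of D-boxes. Capitals mark the matched letters, and each sequence reads 5′ to 3′ on the strand of its gene.
Dbp, chr7:45704997-45705246, plus strand: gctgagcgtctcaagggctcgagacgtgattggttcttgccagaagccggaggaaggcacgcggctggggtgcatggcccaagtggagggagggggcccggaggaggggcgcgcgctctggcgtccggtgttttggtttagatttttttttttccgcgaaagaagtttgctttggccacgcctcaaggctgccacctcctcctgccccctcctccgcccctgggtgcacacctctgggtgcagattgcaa
Tef, chr15:81811164-81811413, plus strand: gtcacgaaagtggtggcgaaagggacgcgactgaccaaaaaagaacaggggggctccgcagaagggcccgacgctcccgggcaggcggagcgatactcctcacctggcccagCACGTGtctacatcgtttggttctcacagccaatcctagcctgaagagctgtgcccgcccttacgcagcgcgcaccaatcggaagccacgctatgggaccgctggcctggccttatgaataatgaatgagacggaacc
Per1, chr11:69098699-69098948, plus strand: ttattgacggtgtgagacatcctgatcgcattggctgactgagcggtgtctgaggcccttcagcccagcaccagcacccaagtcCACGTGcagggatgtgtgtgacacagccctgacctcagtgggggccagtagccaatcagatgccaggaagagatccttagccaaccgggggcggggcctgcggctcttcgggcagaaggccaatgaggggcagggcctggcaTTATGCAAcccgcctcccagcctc
Per3, chr4:151044666-151044915, minus strand: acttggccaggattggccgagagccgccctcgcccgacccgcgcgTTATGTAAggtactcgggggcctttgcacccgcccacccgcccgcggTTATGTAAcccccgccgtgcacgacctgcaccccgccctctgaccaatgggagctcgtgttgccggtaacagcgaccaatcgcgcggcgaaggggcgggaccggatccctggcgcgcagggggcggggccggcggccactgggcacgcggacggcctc
The Per1 window held an E-box whose first base lay at -166 from the start site and a D-box, TTATGCAA, at -24. Per3 held TTATGTAA at -205 and at -158. In Tef the E-box lay at -138, and the promoter of its other start site held one at -127. The Dbp window held none of the letters searched, and neither did that of Nr1d1, which also moved and is not shown. A match is a description of these letters only, and sites outside the window, such as those in introns, were not looked at.

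At day 3 of pregnancy, 4 genes were called lower than in virgin mice (Dbp, Tef, Nr1d1 and Per2), with 5 of the 13 tested probes, and none was called higher. Called probes had at least a 2-fold difference and a limma p, adjusted over all tested probes, no higher than 0.10. By this rule 2.43% of all tested probes were called lower and 2.24% higher. The counts of 0 came from limma, with 1 member probe higher at an unadjusted p under 0.05 on each day, and Cyber-T also called 0. At day 7, 3 member probes in 2 genes, Dbp and Per2, were called lower than in virgin mice, with 2.99% of all tested probes lower and 2.89% higher. Between day 3 and day 7, Dbp and Per1 rose, with 1 probe each, where 2.1% of all tested probes were called higher and 1.73% lower. The median log2 change of the 13 probes was -0.61 at day 3 and -0.52 at day 7, against -0.01 over all tested probes in both. Between the days it was 0.06, against -0.01. Because the members were chosen with earlier results of these data known, these counts and medians only describe them. Since bulk RNA was measured, fewer cells that express a gene and less of its RNA per cell cannot be told apart.

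**Figure D1:**
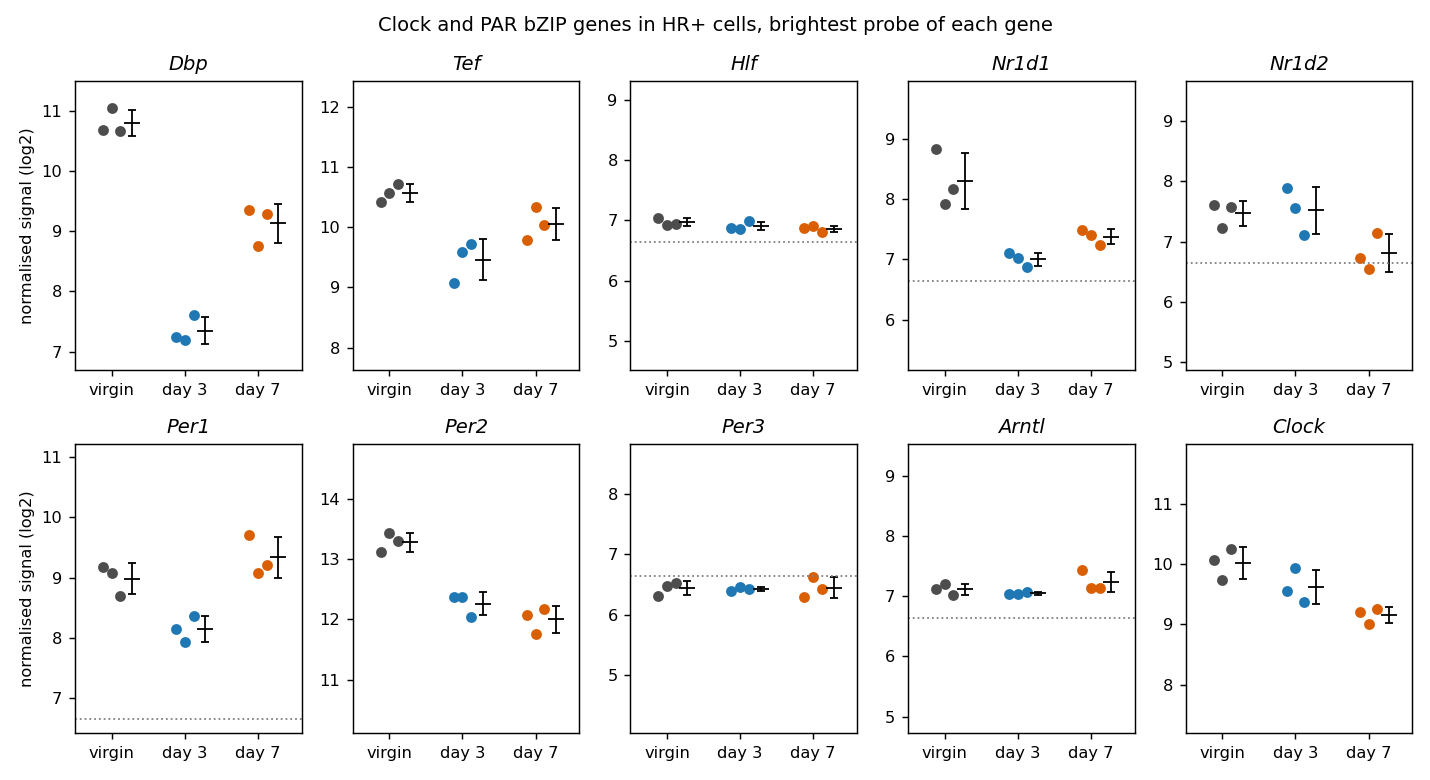
Normalised signal (log2, vertical axis, with the same span in every panel) of the brightest probe of each member in virgin mice and at days 3 and 7 of pregnancy. Points are arrays, 1 mouse each, the bar beside them is the mean ± SD (n = 3) and the dotted line is the background level of 100. Dbp shows 3 separate levels, Per1 is lowest at day 3, Per2 is highest in the virgin arrays, and Per3 lies under the background level on all arrays.

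Each group was made of separate animals, so the tests measure spread between mice. An exact permutation test of 3 arrays against 3 cannot give a two-sided p below 0.10, and precision is limited by how few arrays there were. Scaling matters here as well. The mean signal before normalisation was 284 to 316 in the virgin arrays, 353 to 520 at day 3 and 348 to 440 at day 7. When arrays were scaled to a common median in place of quantile normalisation, the median of all tested probes moved to 0.21 at day 3 and 0.18 at day 7. The calls then split into 2059 probes higher and 124 lower at day 3, against 419 and 455, and into 1771 and 228 at day 7, against 541 and 559. Where that scaling ended the call of a member it is said beside the gene. The calls of single marker genes are given without that scaling.

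Dbp, whose protein (D-box binding protein) is the clock's best-known output factor, moved most among the members. Its normalised log2 signal was 10.69, 11.04 and 10.67 in the virgin arrays, 7.24, 7.19 and 7.61 at day 3, and 9.35, 8.76 and 9.28 at day 7. The 3 groups did not overlap in any pairing, with virgin arrays highest and day 3 arrays lowest. Dbp fell by 3.45 (SE 0.19, limma adjusted p = 3.01e-05) at day 3, which is 10.9-fold. Of the 18707 tested probes only 4 had a lower change at day 3, since the Dbp probe was number 5 from the bottom.

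At day 7 Dbp remained 3.18-fold under virgin mice, with a log2 change of -1.67 (SE 0.19, limma adjusted p = 0.000606). It rose 3.43-fold from day 3 to day 7 (log2 1.78, SE 0.19, limma adjusted p = 0.000868). Before any normalisation the signal of this probe was 1186 to 1753 in virgin arrays, 160 to 205 at day 3 and 448 to 888 at day 7, so the groups were apart in the unscaled values too. Under median scaling the log2 changes were -2.95, -1.07 and 1.88, all still called, against a median of all tested probes of 0.21, 0.18 and -0.03. Each of the 3 calls was also made in all 9 fits that left out 1 array.

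Tef (thyrotroph embryonic factor), a PAR bZIP factor like Dbp, moved in the same direction at day 3 by less. It stood at 10.42, 10.56 and 10.72 in virgin mice, 9.07, 9.59 and 9.72 at day 3, and 9.79, 10.33 and 10.03 at day 7. No 2 groups overlapped, again with virgin arrays highest and day 3 arrays lowest. Tef fell 2.15-fold at day 3 (log2 -1.11, SE 0.19, limma adjusted p = 0.00591). At day 7 the change from virgin was -0.52 (limma adjusted p = 0.108) and that from day 3 was 0.59 (limma adjusted p = 0.0846), neither of which was called. Under median scaling the first of these was 0.10.

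The Tef call was lost under median scaling, where the log2 change at day 3 was -0.40, and without day 3 replicate 1, where it was -0.91. Its signal before normalisation was 994 to 1357 in virgin arrays and 877 to 1007 at day 3, which overlap. The other Tef probe was not tested, with group means of signal of 91.8 to 98.7. Hlf (hepatic leukaemia factor), the remaining PAR bZIP gene, was close to the background level of 6.64 on the log2 scale in every array, at 6.92 to 7.04 in virgin mice, 6.87 to 6.98 at day 3 and 6.81 to 6.91 at day 7. Its changes of -0.06, -0.10 and -0.05 were not called, and the first and second turned in sign under median scaling (0.13 and 0.056).

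Of the REV-ERB receptors, which repress transcription when bound to haem, Nr1d1 (REV-ERB alpha) fell at day 3. Its values were 8.83, 7.91 and 8.17 in virgin arrays, 7.10, 7.03 and 6.88 at day 3, and 7.50, 7.40 and 7.24 at day 7. All day 3 arrays lay under all day 7 arrays, and these under all virgin arrays, of which replicate 1 was the highest. The fall at day 3 was 2.46-fold (log2 -1.30, SE 0.21, limma adjusted p = 0.00396). At day 7 the change of -0.92 had an adjusted p of 0.0162 in limma but did not reach a fold of 2, and that between the days was 0.38 (limma adjusted p = 0.319).

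Without virgin replicate 2 the day 7 change of Nr1d1 was -1.12 and was called. Under median scaling the day 3 change was -0.88 and was no longer called, and the day 7 change was -0.46 (limma adjusted p = 0.138). Nr1d2 (REV-ERB beta) had another course. It was 7.61, 7.24 and 7.57 in virgin mice, 7.88, 7.56 and 7.11 at day 3, and 6.73, 6.55 and 7.15 at day 7. Virgin and day 3 arrays overlapped, while day 7 arrays lay under the virgin arrays and only 1 of them reached into the range of day 3.

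For Nr1d2 the change from virgin was 0.05 at day 3, a sign that turned when virgin replicate 2 or day 3 replicate 1 was left out (-0.07 and -0.14). At day 7 it was -0.66 (limma adjusted p = 0.0755), and between the days it was -0.71 (limma adjusted p = 0.0735), neither of which reached a fold of 2. Under median scaling these changes were 0.51, -0.38 and -0.90, none called. The other Nr1d2 probe was not tested. Whether Nr1d1 and Nr1d2 differ from each other in their change was not tested.

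Per1, whose protein represses BMAL1 and CLOCK and whose promoter window is printed above, was lowest at day 3. Its brightest probe was 9.17, 9.08 and 8.69 in virgin arrays, 8.14, 7.93 and 8.36 at day 3, and 9.71, 9.08 and 9.21 at day 7. Day 3 arrays lay under all the others, and virgin and day 7 arrays overlapped. Before normalisation the signal was 332 to 448 in virgin arrays and 295 to 447 at day 3, which overlap, and 559 to 1150 at day 7. Per1 rose 2.28-fold from day 3 to day 7 (log2 1.19, SE 0.20, limma adjusted p = 0.00581). Without day 7 replicate 1, the highest array, this was 0.997 and just missed the fold of 2.

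Against virgin mice the change of Per1 was -0.84 at day 3 (SE 0.20, limma adjusted p = 0.0226), under a fold of 2, and 0.35 at day 7 (limma adjusted p = 0.275). Under median scaling these were -0.20 (limma adjusted p = 0.573) and 0.96 (limma adjusted p = 0.018), with neither called. A second Per1 probe followed the first over the 9 arrays (Pearson r = 0.974, across probes of 1 gene). It gave -0.61 (limma adjusted p = 0.033), 0.21 (limma adjusted p = 0.401) and 0.82 (limma adjusted p = 0.0106) in the same order, none of which reached a fold of 2, and under median scaling it gave -0.28, 0.65 and 0.93. Another probe, annotated to Per1 through a cDNA clone, had all 3 virgin arrays under the background level and did not follow the first (r = 0.053). Its changes were 0.26 (limma adjusted p = 0.0962), 0.32 (limma adjusted p = 0.0415) and 0.06 (limma adjusted p = 0.771). None reached a fold of 2, though on both days all arrays lay above all virgin arrays.

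Per2, the paralogue of Per1, had another order of groups. Its brightest probe gave 13.11, 13.43 and 13.30 in virgin arrays, 12.37, 12.37 and 12.05 at day 3, and 12.08, 11.75 and 12.17 at day 7. Virgin arrays were above all the others, and days 3 and 7 overlapped. Per2 fell 2.03-fold at day 3 (log2 -1.02, SE 0.15, limma adjusted p = 0.00233) and 2.43-fold at day 7 (log2 -1.28, SE 0.15, limma adjusted p = 0.00064), and the change between the days was -0.26 (limma adjusted p = 0.331).

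A second Per2 probe read 11.79, 11.99 and 12.11 in virgin mice, 10.86, 11.10 and 10.53 at day 3, and 10.42, 10.19 and 10.92 at day 7, and followed the first with r = 0.982 over the 9 arrays. Virgin arrays were again highest. It fell by 1.13 (SE 0.20, limma adjusted p = 0.00721) at day 3 and by 1.45 (SE 0.20, limma adjusted p = 0.00193) at day 7. The remaining Per2 probe was near background in all arrays (6.40 to 6.74), with changes of 0.13, 0.06 and -0.07, none called.

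All 4 calls of Per2 were lost under median scaling, where the changes of both probes were -0.48 and -0.50 at day 3 and -0.79 and -0.90 at day 7. The signal of the brightest probe before normalisation was 6992 to 9453 in virgin arrays, 4202 to 8426 at day 3 and 3518 to 5785 at day 7, so virgin and day 3 arrays overlapped there. Leaving out day 3 replicate 3 also ended both day 3 calls (-0.91 and -0.98), and leaving out virgin replicate 2 ended that of the brightest probe (-0.95). Both Per3 probes lay under 100 on all 9 arrays, between 6.16 and 6.63 on the log2 scale, so no change of Per3 was tested at this signal.

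**Figure D2:**
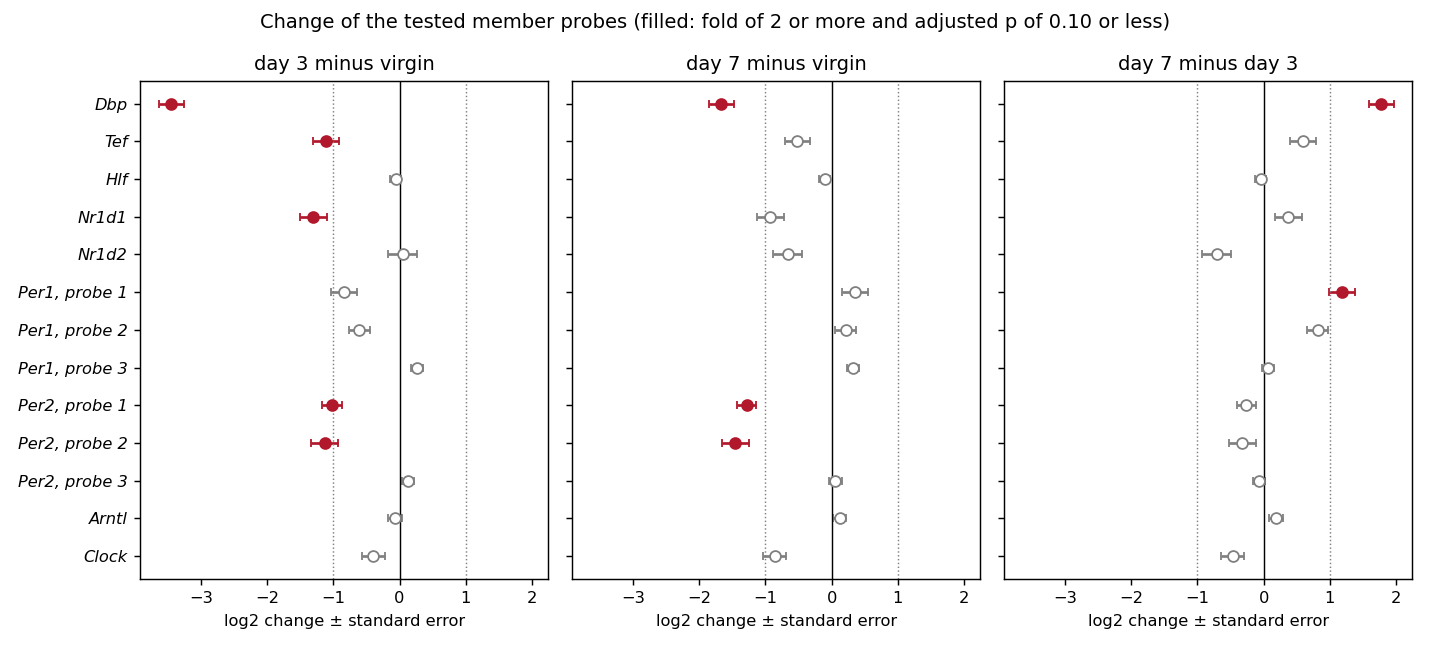
Log2 change (horizontal axis) of each tested member probe in the 3 comparisons, with its standard error from the fit of all 9 arrays. Filled red points passed the test and dotted lines mark a fold of 2. At day 3 the filled points are Dbp, Tef, Nr1d1 and both bright Per2 probes, and between the days they are Dbp and Per1.

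Neither activator was called in any comparison. Arntl, which REV-ERB receptors repress, was 7.12, 7.20 and 7.01 in virgin arrays, 7.03, 7.03 and 7.07 at day 3, and 7.43, 7.13 and 7.14 at day 7, so that virgin arrays overlapped with both pregnant groups. Its changes were -0.07 (SE 0.10), 0.12 and 0.19 (limma adjusted p = 0.72, 0.476 and 0.315). The first of these turned to 0.19 under median scaling, under the 0.21 by which all tested probes moved.

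Clock, the partner of BMAL1, was 10.07, 9.73 and 10.24 in virgin mice, 9.55, 9.94 and 9.37 at day 3, and 9.21, 9.01 and 9.25 at day 7. Day 7 arrays were under all others, and virgin and day 3 arrays overlapped. The change at day 7 was -0.86 (SE 0.17, limma adjusted p = 0.0105), which did not reach a fold of 2. Without virgin replicate 2 it was -1.001 and passed, and under median scaling it was -0.26 (limma adjusted p = 0.539). At day 3 it was -0.40 (limma adjusted p = 0.182), a sign that turned to 0.32 under median scaling. The other Clock probes were not tested.

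Seen as a group, 7 of the 13 tested probes had all day 3 arrays under all virgin arrays and 1 had them all above, while 15.7% and 17.4% of all tested probes did so. At day 7 these counts were 8 and 1, with 16.4% and 16.2% of all tested probes. Between the days 6 probes had all day 7 arrays above all day 3 arrays and 1 had them all below, with 15.1% and 17.9% of all tested probes. Probes of 1 gene are not independent of each other, and these counts are given as a description.

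**Figure D3:**
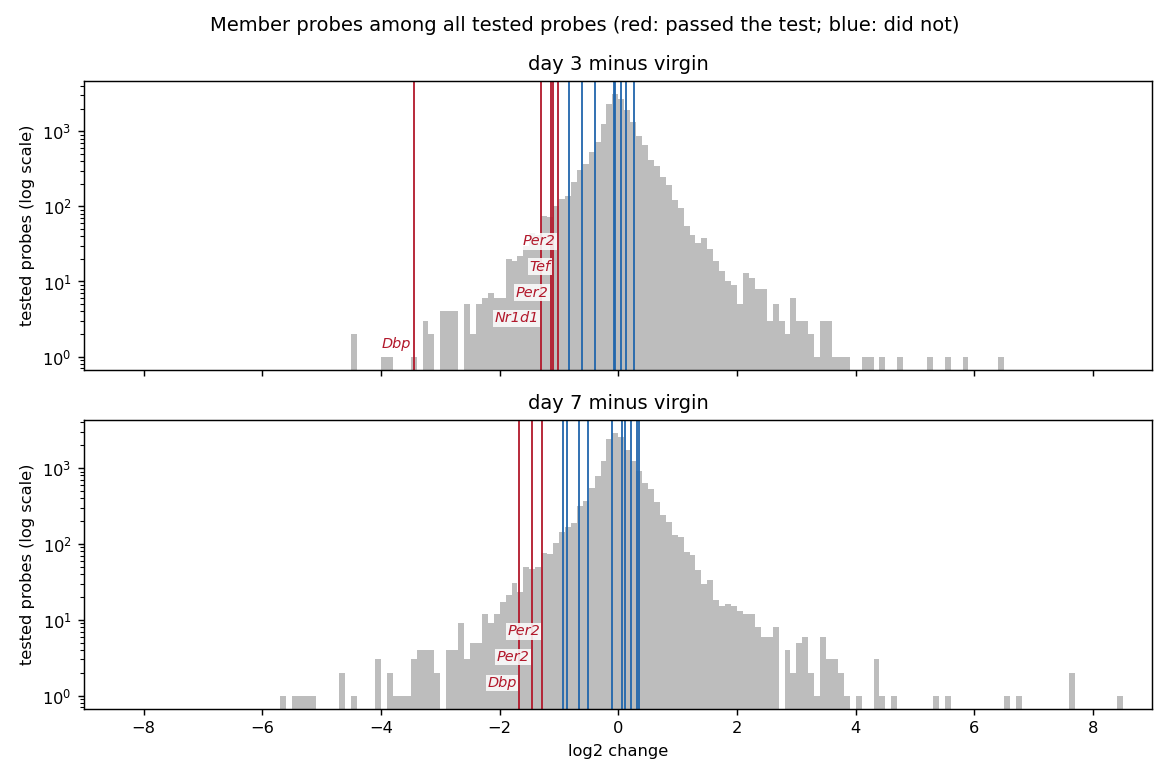
Histograms of the log2 change (horizontal axis) of all 18707 tested probes at day 3 and at day 7 against virgin, with the number of probes on a logarithmic vertical axis. Vertical lines are the 13 member probes, red where the test was passed. At day 3 the Dbp line, at -3.45, stands far from the other member lines.

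Over the 9 arrays, Tef (Pearson r = 0.879) and Nr1d1 (r = 0.853) ran most like Dbp among the members. The bright Per2 probes (0.721 and 0.68) and the bright Per1 probes (0.672 and 0.687) were less like it. Clock (0.36), Hlf (0.335), Arntl (0.311) and Nr1d2 (-0.08) were less like it still. The dim probes of Per1 (-0.642) and Per2 (-0.597), both under background in the virgin arrays, ran against it. These values describe 9 arrays in 3 groups, so differences between the groups enter them.

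Among the brightest probes of the other 11260 named genes tested, the 5 with the highest r were Tspo (0.986), Rhbdl2 (0.984), Lcn2 (0.976), Taz (0.974) and Gadd45g (0.973). Tspo encodes a protein of the outer mitochondrial membrane, Rhbdl2 a rhomboid protease, Lcn2 a secreted protein that binds iron siderophores, and Gadd45g a growth arrest protein. The 5 with the lowest r were Mcm5 (-0.998), Pbk (-0.993), Kif22 (-0.993), Rrm1 (-0.992) and Cenpa (-0.989). Mcm5 is part of the replicative helicase, Rrm1 of ribonucleotide reductase, Pbk is a mitotic kinase, Kif22 a kinesin and Cenpa the centromeric histone H3 variant. Mcm5 read 7.31, 7.17 and 7.64 in virgin arrays, 11.85, 11.89 and 11.18 at day 3, and 9.11, 9.90 and 9.18 at day 7, which is the order of Dbp turned over.

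A list of 45 further clock pathway genes gave few calls. Of these 40 were read here and 28 had a tested probe. At day 3, 1 gene of the 28 was called higher and 1 lower, where 2.97% and 3.15% of all named genes tested were. The counts at day 7 were also 1 and 1 (3.71% and 3.86% of all), and between the days 1 gene was higher and 0 were lower (2.75% and 2.29%). Medians of the brightest probes were 0.01, 0.07 and -0.001 on the log2 scale, near those of all named genes (-0.01 each). For the count of 0 from limma, 6 genes were lower at an unadjusted p under 0.05, and Cyber-T called 1 gene, Timeless.

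Timeless, named for its homology to a Drosophila clock gene and known in mammals as a replication fork protein, was the gene called higher. It was 7.64, 6.78 and 7.35 in virgin mice, 10.27, 10.15 and 9.64 at day 3, and 9.37, 9.32 and 7.65 at day 7. All day 3 arrays were above all others, and day 7 replicate 3 was close to the virgin arrays. Timeless rose by 2.76 (SE 0.44, limma adjusted p = 0.00404) at day 3 and by 1.52 (SE 0.44, limma adjusted p = 0.0477) at day 7, and the latter call was lost without virgin replicate 2, day 7 replicate 1 or day 7 replicate 2 and when only virgin and day 7 arrays were fitted. The change between the days was -1.25 (limma adjusted p = 0.112). The other Timeless probes were near background on all arrays (6.28 to 6.70) and were not tested.

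Bhlhe40 (DEC1), a repressor that competes for E-boxes, was 11.07, 10.76 and 10.91 in virgin mice, 10.39, 10.22 and 9.73 at day 3, and 9.52, 9.30 and 9.30 at day 7, with no overlap of groups. It fell by 1.54 (SE 0.17, limma adjusted p = 0.00051) at day 7, while at day 3 the change was -0.80 (limma adjusted p = 0.0141), under a fold of 2. Under median scaling no gene of the list was called lower than in virgin mice, Bhlhe40 and Csnk1e included.

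Probes of Csnk1e, which encodes a casein kinase that phosphorylates PER proteins, disagreed. One probe was 8.63, 8.42 and 8.00 in virgin mice, 7.39, 7.27 and 7.21 at day 3, and 8.68, 8.49 and 8.12 at day 7, lowest at day 3 without overlap. It fell by 1.06 (SE 0.18, limma adjusted p = 0.0059) at day 3 and rose by 1.14 (limma adjusted p = 0.0053) from day 3 to day 7. The brighter probe of the gene gave -0.15 and -0.42 in these comparisons and was not called. Without virgin replicate 1 the call at day 3 was lost.

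The Cryptochrome repressor Cry2 was 8.00 to 8.50 in the 3 virgin arrays, 7.52, 7.40 and 7.21 at day 3, and 7.62, 7.72 and 7.48 at day 7, with virgin arrays highest. Its changes from virgin were -0.81 (limma adjusted p = 0.0081) and -0.58 (limma adjusted p = 0.0305), both under a fold of 2. Cry1, Npas2 (a paralogue of Clock) and Rora (an activator of Arntl) were under 100 on all arrays, as were Arntl2, Bhlhe41, Cyp7a1, Fbxl21 and Fbxw11. Limma called 0 of the 8 output genes that cycle in many tissues and 0 of the 4 tested PAR bZIP targets known from liver, kidney or brain, and Cyber-T called the same numbers. Over all named genes tested, 3.15% were lower and 2.97% higher at day 3, and 3.86% and 3.71% at day 7. Between the days these shares were 2.29% and 2.75%, so counts of 0 in lists this short say little. Of the targets, Nr1i3 and Cyp2b10 had group means close to background (6.56 to 6.67 and 6.51 to 6.90). The nearest was Tspan4, named after its values were seen, at -0.93 and -0.95 with adjusted p of 0.00784 and 0.00628 in limma but under a fold of 2. For the outputs the changes of the brightest probes were -0.93 to 0.45 at day 3 and -0.95 to 0.24 at day 7, and for the targets they were -0.34 to 0.10 and -0.45 to 0.22.

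**Figure D4:**
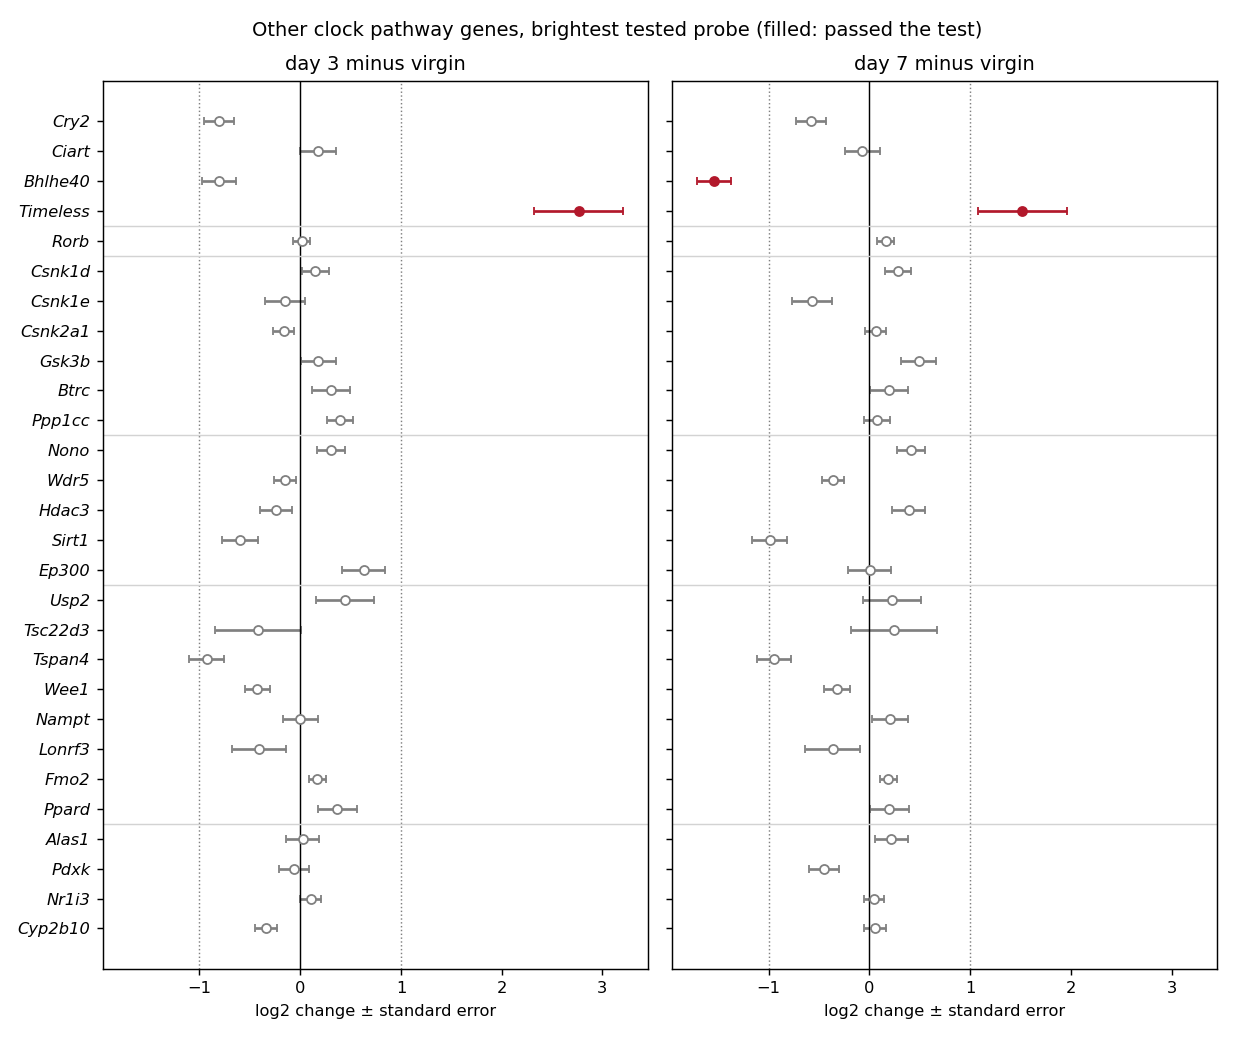
Log2 change (horizontal axis) with its standard error for the brightest tested probe of each of the 28 other clock pathway genes at day 3 and day 7 against virgin, grouped by role with grey lines. Filled red points passed the test and dotted lines mark a fold of 2. Timeless is the filled point on the right in both panels and Bhlhe40 that on the left at day 7, while the called probe of Csnk1e is not its brightest and is not drawn.

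Other measures moved along with the members, and their part in the changes was not tested. Of 23 tested early response genes, which respond within minutes to growth factors and to tissue dissociation, 10 were called lower and 1 (Cebpd) higher at day 3, and 9 were lower and 0 higher at day 7. Over all named genes tested, 3.15% were lower and 2.97% higher at day 3, and 3.86% and 3.71% at day 7. For that 0, limma had 1 gene at an unadjusted p under 0.05 and Cyber-T also called 0. The median change was -0.76 and -0.88, and the summed signal of the list was 149000 to 168400 in virgin arrays, 87880 to 105800 at day 3 and 74500 to 89700 at day 7. Under median scaling 3 and 5 of these genes were called lower. The 4 brightest, Egr1, Ier3, Zfp36 and Atf3, changed by -0.41, -0.17, -0.60 and -1.11 at day 3 and by -0.45, -0.95, -1.35 and -1.38 at day 7, of which Atf3 was called on both days and Zfp36 at day 7.

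Markers of cell types were read as sums of signal. The 7 HR+ luminal markers tested summed to 32220 to 46040 in virgin arrays, 29260 to 30720 at day 3 and 23360 to 24450 at day 7, with Esr1 close to background in all groups (6.79 to 6.93 on the log2 scale). Brightest were Krt8 (means of 14.46, 14.23 and 13.91 in the 3 groups) and Krt18 (13.60, 13.05 and 12.83), neither of them called. They weigh most in the sum, and the study used the Krt8 protein to mark luminal cells. Against virgin, Pgr was called lower on both days (log2 -1.18 and -1.13), Foxa1 lower at day 7 (-1.26) and Cited1 higher at day 3 (1.36), and the single marker genes here were named after their values were seen. Those of HR- luminal cells summed to 4554 to 7870, 1333 to 2051 and 1422 to 3595, with Elf5 and Kit near background. In that list Csn3 was called lower on both days (-2.79 and -2.69) and Csn2 higher at day 7 (2.54), and no other gene was called against virgin. Basal markers summed to 730 to 1682, 1336 to 4593 and 3161 to 13210, although Krt5 was under background in all groups. Of these, Krt17 was called higher on both days (2.83 and 3.66) and Trp63 at day 7 (1.86), with no other basal gene called against virgin. At day 3, replicate 1 was the highest for Krt14 (9.77, 7.24 and 7.34) and Acta2 (11.07, 7.47 and 7.33). Erythroid markers summed to 359 to 388, 797 to 1152 and 1747 to 5037. Hba-a1 was called higher on both days (2.45 and 3.55) and Hbb-bs at day 7 (3.17), where its brightest probe read 11.44, 11.00 and 6.63. Alas2 was not called. Fibroblast markers summed to 2518 to 3364, 2803 to 3382 and 875 to 1110, with Dcn the only one called against virgin (-2.24 at day 7) and Col1a1 and Lum under 100 on all arrays. Those of lymphocytes and macrophages summed to 683 to 1090, 522 to 524 and 675 to 785, with Lyz2 (-1.21) and Cd74 (-1.02) called lower at day 3 and Lyz2 higher from day 3 to day 7 (1.41). No adipocyte marker had a group mean above background.

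**Figure D5:**
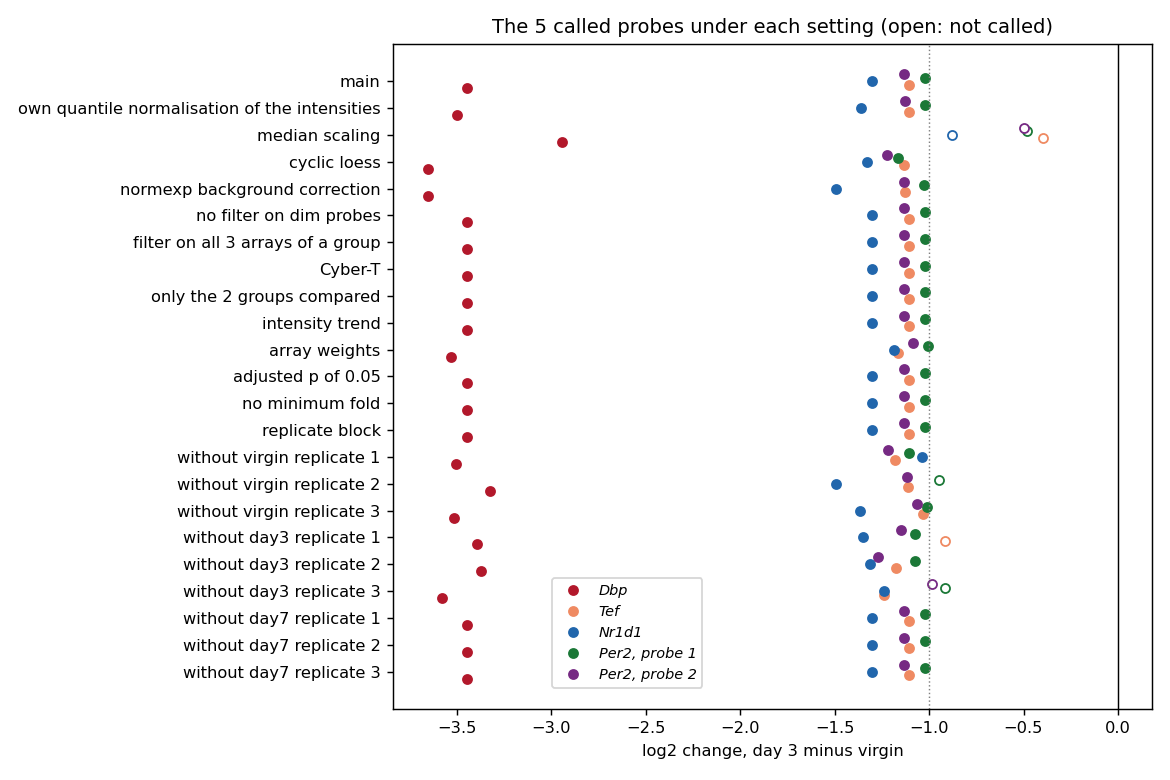
Log2 change from virgin to day 3 (horizontal axis) of the 5 member probes called lower, in the fit reported here (main) and in each alternative (rows). Filled points were called and open points were not. Dbp is filled in every row, and Tef, Nr1d1 and both Per2 probes are open under median scaling.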

How the data were processed

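RNA of HR+ cells from 9 mice was measured on Illumina Mouse WG-6 v2.0 BeadChips, 1 array per mouse. The authors deposited the intensity of each probe on the linear scale before normalisation. They also deposited log2 values, quantile normalised with Partek Genomics Suite 6.6, and these are the values reported here. Each log2 column ranked best with the intensity column of its own array. The software that summarised beads to probes and the BeadChip of each array are not given in the sources used here.

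Of 45281 probes 34885 had 1 gene symbol in the platform annotation, 18 had several and 10378 had none. Probes with a mean signal of 100 or more in at least 1 group were fitted over all 9 arrays with limma 3.58.1 in R 4.3.3 (lmFit and eBayes, no covariate), and p-values were adjusted by Benjamini-Hochberg over all 18707 tested probes. The fit was tested on simulated data. The share of probes at a signal of 100 or more before normalisation was 28.1 to 48.4% per array, which limits dim genes. Array correlations within groups were 0.967 to 0.992.

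Named are all member probes, clock pathway genes called in any comparison with Cry1, Cry2, Npas2 and Rora, the 5 genes most and least like Dbp, and up to 4 of the brightest genes of the early response and glucocorticoid lists. Some genes of the clock pathway list are not reported here. The members and lists were chosen with earlier results of these data known. Alternatives were quantile normalisation of the intensities, median scaling, cyclic loess, normexp with an offset of 50, other filters, Cyber-T, fits of only 2 groups, an intensity trend, array weights, other thresholds, a replicate block and each array left out. Figures were drawn with matplotlib 3.10.9 in Python 3.11.15.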

Additional observations from a re-analysis of the deposited data

Results flagged for a closer look

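For 3 probes of the members and the clock pathway list, day 7 of pregnancy was called different from day 3. The test was the day 7 minus day 3 contrast of the limma fit, with a fold of at least 2 required. Without that fold 4 member probes were higher and 1 lower in the same contrast. Of all tested probes 15.1% had all 3 day 7 arrays above all 3 day 3 arrays. The Dbp probe differed by 1.78 on the log2 scale (changes from virgin of -3.45 and -1.67, adjusted p = 0.000868 in limma), with all 3 day 7 arrays above all 3 day 3 arrays. The brightest Per1 probe differed by 1.19 (changes of -0.84 and 0.35, adjusted p = 0.00581 in limma), again in 3 of 3 arrays. The dimmer Csnk1e probe differed by 1.14 (changes of -1.06 and 0.08, adjusted p = 0.0053 in limma) in 3 of 3 arrays, while the brighter Csnk1e probe differed by -0.42 and was not called.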

How the results depend on the processing

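Of 843 values of single member probes under an alternative, 811 kept their direction and their side of the thresholds, 11 lost a call, 14 gained one and 7 turned in sign. All 3 Dbp calls were kept in every alternative run. Median scaling turned Tef at day 7 against virgin (0.10), Hlf at day 3 and day 7 (0.13 and 0.056), Arntl at day 3 (0.19) and Clock at day 3 (0.32). Nr1d2 at day 3 was -0.14 to 0.25 with 1 array left out, turning without virgin replicate 2 (-0.07) and without day 3 replicate 1 (-0.14). Member probes called lower numbered 1 at day 3 and 1 at day 7 under median scaling, against 5 and 3. With no minimum fold 1 was higher at day 3, 1 was higher and 6 were lower at day 7, and 4 were higher and 1 lower between the days. With 1 array left out, 3 to 5 were lower at day 3 (3 without day 3 replicate 3), 3 to 5 were lower at day 7 (5 without virgin replicate 2) and 1 to 2 were higher between the days (1 without day 7 replicate 1).

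Clock pathway genes under median scaling were 3 higher and 0 lower at day 3 and 3 higher and 0 lower at day 7, against 1 in each. With no minimum fold they were 3 and 7 at day 3, 4 and 7 at day 7, and 3 and 3 between the days. With normexp 2 were lower at day 3 and 3 at day 7, and 1 was lower between the days. With the intensities quantile normalised here, or with array weights, 2 were lower at day 7, and with fits of only 2 groups 0 were higher there. Between the days 1 gene, Timeless, was lower with the filter on all 3 arrays, Cyber-T, an intensity trend and array weights, against 0. With only the brightest probe of a gene 0 were lower at day 3 and 0 higher between the days. With 1 array left out the counts were 0 to 2 lower at day 3 (0 without virgin replicate 1), 0 to 1 higher and 1 to 2 lower at day 7, and 0 to 1 lower between the days. The causes of these moves were not tested.

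With the replicate block, 1 clock pathway gene was lower between the days against 0, and no member call changed. Replicate numbers did not pair the samples, since deviations of same-numbered arrays from their group means correlated at -0.053 to 0.073. The BeadChip as a block was not run because the chip of each array is not given. Low signal over background limits what can be said of Hlf, Arntl, Per3 and the dim probes of Per1 and Per2. The same holds for Nr1d1 at day 3 (6.88 to 7.10 on the log2 scale) and Nr1d2 at day 7 (6.55 to 7.15). At day 3 the second Per1 probe (6.93 to 7.09) and Dbp (7.19 to 7.61) were also not far above background. This limits how exactly the size of their falls can be read.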

Other observations

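Genes known as glucocorticoid targets, Per1 among them, moved in both directions. Of 11 tested, 3 were called higher and 2 lower at day 3, 1 higher and 1 lower at day 7, and 2 higher and 1 lower between the days. Over all named genes tested the shares higher and lower were 2.97% and 3.15%, 3.71% and 3.86%, and 2.75% and 2.29%. Under median scaling the counts were 3 and 0, 2 and 1, and 2 and 1. The brightest were Sgk1, Errfi1, Mt1 and Dusp1. Sgk1, a kinase, changed by -0.03 at day 3 and -0.80 at day 7, neither called, and Errfi1, an inhibitor of EGF receptor signalling, fell by 1.43 at day 7 (limma adjusted p = 0.000175). Mt1, a metallothionein, rose by 1.68 at day 3 (limma adjusted p = 0.00139), and Dusp1, a phosphatase of MAP kinases, fell by 1.00 (limma adjusted p = 0.000265). Under median scaling that call of Dusp1 was lost. Fkbp5, a chaperone of the glucocorticoid receptor chosen after its values were seen, rose by 1.80 at day 3 (limma adjusted p = 0.00312) and by 3.25 at day 7 (limma adjusted p = 0.000132). Between the days Fkbp5 rose by 1.45 (limma adjusted p = 0.00977) and Per1 by 1.19 (limma adjusted p = 0.00581). In the same comparison Errfi1 fell by 1.22 (limma adjusted p = 0.000798) and was called. Mt1 (-0.88) and Sgk1 (-0.77) also fell, under a fold of 2, so the list did not move in 1 direction.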
